A study of Drosophila melanogaster with 6 samples.

Results

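The transcriptome of control indirect flight muscle 64 h after puparium formation (APF) was described from 3 libraries, which are all the WT libraries among the 6 of the series. They were chosen by their labels alone, and the 3 M1BP RNAi libraries were not used. The WT pupae carried the muscle driver Mef2-GAL4 without an RNAi transgene and were staged at 25 °C. Each library was made from polyA RNA of dorsolongitudinal flight muscles dissected by hand from 6 to 8 pooled pupae, so that 1 library averages several animals, and no label says whether the pools came from separate cultures. The driver is present in all 3 libraries, and no library without GAL4 was used. The sex of the pupae is not given. Values of the 3 libraries are listed in the order WT replicate 1, 2 and 3, and means are given ± SD over them (n = 3). With 1 group there is no contrast to test, and a sign-flip test over 3 libraries could not give a p below 0.25, so the values below are descriptive. They measure the spread between these 3 pools, part of which may be technical.

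Indirect flight muscle is the fibrillar muscle that powers the wings of the fly. Its fibres contract by stretch activation, in which each stretch sets off the next contraction while calcium stays raised, and between the myofibrils they hold large mitochondria with densely packed cristae. The fate is set by the transcription factor Spalt major (salm) and by the RNA-binding protein Bruno 1 (bru1, also arrest), and it comes with its own versions of actin, troponin C and other sarcomere proteins. At 64 h APF the sarcomeres have been laid down and are still growing, and the inner mitochondrial membrane is being built.

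Depth was 54890681 counts in WT replicate 1, 43017456 in WT replicate 2 and 43298406 in WT replicate 3, of which 40493930, 23995145 and 31921488 lay on nuclear genes. Levels are given as nuclear TPM, which is the count per kilobase of exon scaled to 1e+06 over nuclear genes within each library, with the genes of the mitochondrial genome (mtDNA) counted apart. The 3 libraries differed pairwise by far more than counting noise. Chi-square over its degrees of freedom was 321.6 for WT replicates 1 and 2, 46.5 for 1 and 3 and 303.1 for 2 and 3. The 2 largest values were those of the pairs with WT replicate 2, and how much of them came from mtDNA counts was not tested. Among 7292 nuclear genes compared, which leave mtDNA genes out, 140, 374 and 560 differed 2-fold or more in these pairs. The orders of the 2 measures are therefore not comparable. WT replicate 2 stood apart in its share of mtDNA counts, at 44.2% against 26.2% and 26.3% in WT replicates 1 and 3. WT replicate 3 stood apart in its genes. The noncoding RNAs roX1 and roX2, parts of the male dosage compensation complex, had 2, 6 and 884 counts and 0, 0 and 191 counts, so nearly all of their counts came from WT replicate 3. In that library 80 nuclear genes had 10 counts or more while both others had 0, whereas WT replicate 1 alone had 6 such genes and WT replicate 2 alone had 3. Other sex-linked values did not single out WT replicate 3. Genes of the Y chromosome had 41, 17 and 37 counts. The list of dosage compensation and sex held 6 genes with 10 counts in each library, which leaves out roX1 and roX2. Of these 6, the genes above their own mean numbered 3, 2 and 3. The sex of the pools was not tested.

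The label was checked first. Act88F, the actin of the flight muscle (chromosome 3R, 15439969 to 15442177, plus strand, dm6), had 57108, 52318 and 56056 TPM and was the most abundant nuclear transcript in every library. The thick filament protein flightin, encoded by fln (3L, 19989551 to 19991220, minus strand), had 17320.1, 17614 and 17957 TPM and ranked 4. TpnC4 (2R, 5503437 to 5507866, minus strand), the troponin C of stretch activation, had 10498, 10576 and 10490.4 TPM and ranked 11. For each of these genes the 3 libraries lay within 10% of each other. The transcription factor gene salm (2L, 11434311 to 11445614, minus strand) had 79.5, 59.6 and 74.4 TPM and ranked 1135 of 17457 nuclear genes. All 4 markers were thus well above 1 TPM in each library, and together they held 8.34% ± 0.245 of nuclear TPM.

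Markers of other cell types were far below Act88F, fln and TpnC4, although some reached the level of salm. The tubular muscle actin Act79B had 861 ± 409 TPM. The 8 neuron markers had a median of 0.385 TPM and the highest, elav, had 3.07, 3.00 and 2.89 TPM. The 11 myoblast and fusion genes had a median of 1.41 TPM, with the transcription factor gene zfh1 highest at 10.1, 8.00 and 10.1 TPM, hbs at 5.35 and mbc at 4.78 TPM, and the factor genes twi and Him lowest or nearly so at 0.0202 and 0.0944 TPM. The 8 haemocyte markers had a median of 4.52 TPM, with 3 of them under 1 TPM and Hml lowest at 0.130 ± 0.0183 TPM. The highest of them was Col4a1, a basement membrane collagen that fat body also makes, at 61.3, 39.5 and 27.3 TPM. Among the markers listed, the tracheal chitin deacetylases verm and serp were the highest of a tissue other than muscle, at 98.6 ± 10.6 and 87.2 ± 19.6 TPM. The tracheal factor genes btl and trh had 23.3 ± 8.68 and 13.3 ± 4.54 TPM. Tracheae are known to enter the flight muscle during pupal life. The tendon factor gene sr was at 1.32 ± 0.190 TPM. The levels of such markers reflect both how many of the cells were taken and how much RNA each held, which bulk libraries cannot separate. Genes of the Osiris family, known mostly from cuticle-secreting cells, were not among these markers and reached far higher levels, with Osi19 at 6924, 10029 and 4204 TPM.

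Expression was concentrated in few genes. Of 17457 nuclear genes, 7046 had 1 TPM or more in each library, 4578 had 5 TPM or more and 4591 had no count in any. At the top, 81 genes held 50% of all nuclear TPM and 921 held 90%, and the 10 most abundant alone held 20.3%. The number of genes needed for 50% was 80, 79 and 82 in the single libraries. The 214 genes at a mean of 1000 TPM or more held 70.2%, and these had a median exon length of 1018 bases, against 2255 bases for the 3839 genes of 1 to 10 TPM. Protein-coding genes held 99.2%.

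**Figure D1:**
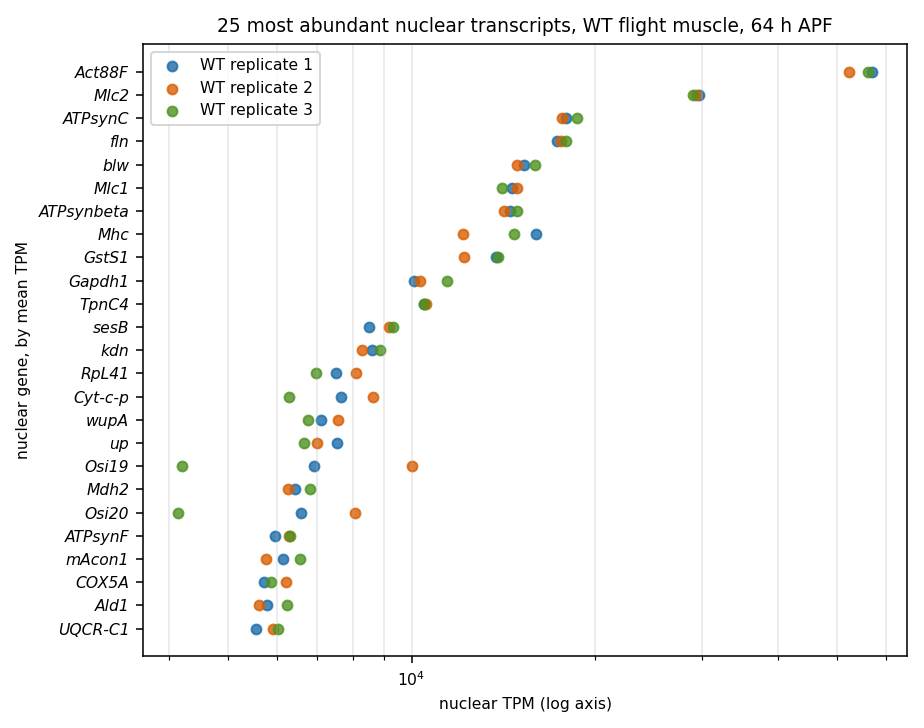
Nuclear TPM (log axis) of the 25 most abundant nuclear genes, with 1 point for each WT library. Act88F lies above all other genes in each library, and the 3 points of Osi19 and Osi20 lie far apart.

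The 25 most abundant nuclear transcripts came from sarcomere genes, ATP synthase, the respiratory chain, the tricarboxylic acid (TCA) cycle and glycolysis, with few exceptions. Below Act88F stood Mlc2, the regulatory light chain of myosin, at 29681, 29252 and 29029 TPM. ATPsynC, the membrane ring subunit of ATP synthase, had 17903, 17664 and 18690.1 TPM and was the highest metabolic gene. The catalytic head subunits blw (alpha) and ATPsynbeta had 15364 ± 534 and 14534 ± 357 TPM, and the myosin genes Mlc1 and Mhc had 14541 ± 408 and 14306 ± 1968 TPM. They were followed by Gapdh1 of glycolysis (10621 ± 718 TPM), sesB, the ADP/ATP carrier of the inner membrane (9007 ± 431 TPM), kdn, citrate synthase (8586 ± 280.4 TPM), and Cyt-c-p, cytochrome c (7531 ± 1183 TPM). Troponin I (wupA) and troponin T (up) stood at 7139.6 ± 407 and 7062 ± 451 TPM. Mdh2, mAcon1, ATPsynF, COX5A, Ald1 and UQCR-C1 closed the list between 5841 and 6501 TPM.

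A few of the top 25 belonged to neither muscle structure nor energy supply. GstS1, a glutathione S-transferase known to be abundant in flight muscle, had 13761, 12205 and 13859 TPM and ranked 9. RpL41, a very short ribosomal protein gene, had 7534 ± 573 TPM. Osi19 and Osi20, members of the Osiris family of insect membrane proteins that is known mostly from cuticle-secreting cells, had 6924, 10029 and 4204 TPM and 6594, 8080.5 and 4128 TPM. Both were highest in WT replicate 2 and lowest in WT replicate 3. Among the 100 most abundant genes, 36 were subunits of oxidative phosphorylation (OXPHOS), 17 cytosolic ribosomal proteins, 12 TCA cycle and pyruvate dehydrogenase genes, 10 sarcomere genes, 7 glycolysis genes, 5 Osiris genes and 3 genes of ATP exchange, which left 10 outside these lists.

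**Figure D2:**
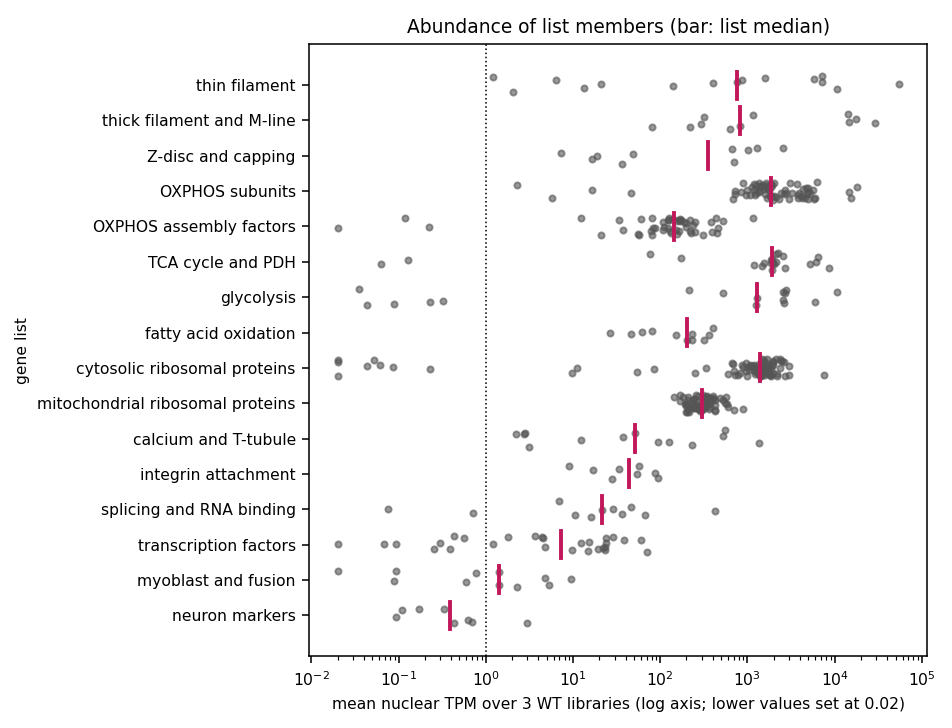
Mean nuclear TPM over the 3 WT libraries (log axis) of the members of 16 gene lists, 1 point per gene, with a bar at the median of each list and a dotted line at 1 TPM. Medians run from 1926 TPM for TCA cycle genes and 1869 TPM for OXPHOS subunits down to 7.32 TPM for transcription factors and 0.385 TPM for neuron markers.

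The sarcomere lists held 17.5% ± 0.546 of nuclear TPM in 36 genes, and all 36 had a mean above 1 TPM. The 15 thin filament genes took 8.95% ± 0.307, the 11 thick filament and M-line genes 7.93% ± 0.221, and the 10 Z-disc and capping genes 0.637% ± 0.0262. Act88F alone exceeded the sum of all the other thin filament genes. Per length, Act88F was 7.83 ± 0.523 times as abundant as up, and wupA was level with up, at a ratio of 1.01 ± 0.0716. Tm2 and Tm1, the tropomyosin genes, had 5783 ± 302 and 1584 ± 58.1 TPM over exon lengths of 2613 and 9463 bases. The capping and length factors of the thin filament were lower, with sals at 407 ± 28.6 TPM and tmod at 6.399 ± 1.21 TPM.

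In the thick filament, Mlc2 was 2.08 ± 0.291 times and Mlc1 1.03 ± 0.168 times as abundant per length as Mhc, although both light chains bind the heavy chain in equal numbers. Mhc has several sets of alternative exons that a single transcript does not use together, and all of them count in its 9058 bases, so its level per length is understated. The giant proteins were low by this measure. Projectin (bt, 28019 bases of exon) had 341, 226 and 303 TPM, and the titin-like sls (58996 bases) had 93.9, 65.6 and 80.8 TPM. Both were lowest in WT replicate 2. Obsc, an M-line protein kinase, had 1146 ± 179 TPM, Strn-Mlck 813 ± 64.8 TPM, paramyosin (Prm) 633 ± 25.4 TPM, the myosin chaperone unc-45 314 ± 69.1 TPM and myofilin (Mf) 219 ± 28.3 TPM.

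At the Z-disc, the LIM protein gene Mlp60A led with 2559 ± 211 TPM, ahead of alpha-actinin (Actn, 1299.7 ± 97.3 TPM), Zasp52 (1020.4 ± 129.9 TPM), Zasp66 (703 ± 17.1 TPM) and Zasp67 (657 ± 33.1 TPM). The actin capping proteins cpa and cpb had 48.2 ± 2.27 and 16.7 ± 0.399 TPM, CAP 36.4 ± 5.00 TPM, filamin (cher) 18.9 ± 1.98 TPM and Mlp84B 7.21 ± 2.92 TPM. Genes of integrin attachment, which ties myofibrils to the tendon, were lower, with a median of 43.9 TPM against 352.5 TPM for the Z-disc list. Their levels ran from 8.92 TPM for the alpha integrin gene mew to 94.9 TPM for parvin, with stck at 87.3, if at 57.8, mys at 53.8, Vinc at 34.1, Ilk at 27.7 and talin (rhea) at 16.8 TPM.

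The 13 genes of calcium handling and T-tubules ranged from 2.24 to 1352 TPM. Amph, amphiphysin of the T-tubules, was highest at 1352 ± 51.5 TPM, followed by the calcium pump SERCA (552 ± 54.4 TPM), junctophilin (jp, 518 ± 39.2 TPM), the ryanodine receptor RyR (234 ± 50.5 TPM) and the voltage-gated channel gene Ca-alpha1D (127 ± 19.5 TPM). The inositol trisphosphate receptor Itpr, the other release channel, had 2.73 ± 0.278 TPM. In the mitochondrial calcium uniporter the pore gene MCU had 2.88, 2.35 and 1.48 TPM, while EMRE, a small subunit of the channel, had 40.5, 35.1 and 37.1 TPM. The pore gene was thus well below EMRE in every library. Letm1 had 94.5 ± 4.35 TPM and stac 12.3 ± 2.28 TPM. The sarcolamban genes SclA and SclB share nearly all of their exon bases, so their 3.14 ± 0.612 and 2.78 ± 0.542 TPM cannot be told apart.

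The nuclear subunits of OXPHOS, 73 genes in the list that the study curated, held 21.4% ± 0.354 of nuclear TPM, more than the sarcomere lists in each library. In this system Complexes I to IV pass electrons to oxygen and pump protons, and Complex V is the ATP synthase that the protons drive. Of the 73 genes, 62 had 1000 TPM or more and 2 had less than 10. Complex V took 9.19% ± 0.149 in 14 genes, Complex I 4.89% ± 0.0797 in 36, Complex IV 3.70% ± 0.169 in 10, Complex III 2.98% ± 0.0680 in 9 and Complex II 0.675% ± 0.0252 in 4. The median subunit level was lowest in Complex I, with 1375 TPM for Complex I, 1691 TPM for Complex II, 3750.4 TPM for Complex III, 3787 TPM for Complex IV and 4733 TPM for Complex V. The SD of these medians over libraries was 26.6 to 154.3 TPM. Complexes III and IV were close, with medians of 3635, 3866 and 3650 TPM and of 3707, 3965 and 3690 TPM. Complex IV was slightly higher in each library, a difference that was not tested.

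Subunits of 1 complex lay close together. In Complex I, 32 of 36 genes were within 2-fold of the complex median, from ND-13A at 722 TPM to ND-ACP, the mitochondrial acyl carrier protein, at 2646 TPM. ND-MWFE lay just outside at 676 TPM, with ND-AGGG (46.4 ± 4.87 TPM), CG40472 (5.73 ± 1.47 TPM) and ND-B8 (2.26 ± 0.965 TPM) far below. Complex II had all 4 genes between 1459 and 1913 TPM. In Complex III, 6 of 9 were within 2-fold, led by the core subunit UQCR-C1 (5841 ± 260.2 TPM) and by UQCR-14 (4647 ± 99.1 TPM). In Complex IV it was 9 of 10, led by COX5A (5948 ± 258 TPM) and levy, subunit 6A (5664 ± 275 TPM), and the exception COX7A had 15.4, 18.4 and 16.4 TPM. The 9 other Complex IV genes had 2440.1 TPM or more. COX7B, which the list does not hold and which was chosen after its values were seen, had 5837 ± 481 TPM. Whether genes outside the list stand in for its low members was not tested.

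In ATP synthase the subunits lay at several levels. Its rotor and head contain several copies of the alpha, beta and c subunits for each gamma subunit. Per length, blw was 3.37 ± 0.0754 times, ATPsynbeta 3.19 ± 0.0450 times and ATPsynC 3.97 ± 0.0880 times as abundant as ATPsyngamma (4553 ± 105 TPM). These ratios differed by under 5% between libraries. The alpha and beta genes were level, at a ratio of 1.06 ± 0.0110. Of the 10 remaining Complex V genes, 9 had 2327 to 6193 TPM, and ATPsyndelta, in the central stalk, was lowest at 951 ± 26.8 TPM.

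Assembly factors, which build the complexes but are not part of them, held 0.931% ± 0.0501 in 50 genes and had a median of 146 TPM, against 1869 TPM for the subunits. Their highest members were CG14757 for Complex II (1155 ± 165 TPM), CG10340 for Complex V (530.3 ± 10.3 TPM), Cox10 for Complex IV (459 ± 26.7 TPM), sloth2 for Complex III (446 ± 37.3 TPM, sharing its exons with sloth1) and CG42380 for Complex I (306 ± 31.2 TPM, sharing its exons with its neighbours). There were 3 members under 1 TPM, namely CG3270 (0.118 TPM), CG15283 (0.222 TPM) and CG31913 (0.0186 TPM).

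In the fuel pathways most genes of the TCA cycle and glycolysis were abundant. The TCA cycle and pyruvate dehydrogenase list held 5.41% ± 0.161, with 18 of 22 genes at 1000 TPM or more. After kdn, Mdh2 and mAcon1 came Idh3a (5173 ± 223 TPM), and the pyruvate dehydrogenase subunits Pdha and Pdhb were level, at a ratio of 1.02 ± 0.0522. Of the succinyl-CoA synthetase beta subunits, ScsbetaA had 2079.5, 2032 and 1958 TPM and ScsbetaG 65.2, 53.3 and 108 TPM, so the ADP-forming partner was at least 18.2 times the GDP-forming one in each library. Glycolysis held 3.30% ± 0.240, and 11 of its 16 genes had over 200 TPM while the other 5, the paralogues Hex-C, Hex-t1, Hex-t2, Ald2 and Pglym87, were under 1. After Gapdh1 and Ald1 stood Pglym78 (2766 ± 217 TPM), Tpi (2700.0 ± 301 TPM), Eno (2635 ± 185 TPM), Gapdh2 (2549.9 ± 431 TPM), PyK (2531 ± 141 TPM), Pgk (1299.8 ± 91.6 TPM) and Pgi (1248 ± 138 TPM). The enzymes of the early steps, Pfk and Hex-A, were lower, at 518 ± 20.6 and 215 ± 17.04 TPM.

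Both arms of the glycerol phosphate shuttle, which carries electrons from glycolytic NADH into the respiratory chain, were unequal at this age. The mitochondrial oxidase gene Gpo1 had 3177, 3103 and 3431 TPM, and the cytosolic dehydrogenase gene Gpdh1 had 132, 159 and 87.4 TPM. Ldh, whose enzyme makes lactate instead, had only 5.02, 6.39 and 4.37 TPM. In the transport of ATP, the carrier sesB was followed by the outer membrane pore porin (4020.3 ± 168 TPM), the arginine kinase gene Argk1, which buffers ATP in insect muscle (2780.3 ± 451 TPM), and the phosphate carrier Mpcp1 (1667 ± 52.2 TPM). The adenylate kinase genes Adk2 and Adk3 had 190.1, 195 and 235 TPM and 46.4, 42.9 and 86.8 TPM, and Adk1 had counts in WT replicate 3 alone, at 0, 0 and 0.214 TPM.

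Genes of fatty acid oxidation had a median of 204.9 TPM, below that of the TCA cycle, and ranged between 26.9 TPM for whd, carnitine palmitoyltransferase, and 402 TPM for Mcad, with Mtpbeta at 364, Etfb at 319.6, Mtpalpha at 234, colt at 231, wal at 205, Arc42 at 153, yip2 at 81.0, Etf-QO at 61.7 and CPT2 at 46.1 TPM. For stored sugar, glycogen phosphorylase (Glyp) had 1104 ± 18.5 TPM, against 124 ± 5.13 TPM for glycogen synthase (Glys) and 64.4 ± 12.3 TPM for the branching enzyme AGBE. Trehalase (Treh), which splits the blood sugar of insects, had 115.3 ± 17.7 TPM and the transporter Tret1-1 39.0 ± 1.75 TPM, while Tps1, which makes trehalose, had 1.14 ± 0.418 TPM and Tret1-2 0.715 ± 0.204 TPM.

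Protein synthesis was the other large class. Cytosolic ribosomal protein genes held 12.7% ± 0.353 of nuclear TPM, and 67 of 92 had 1000 TPM or more, led by RpL41, RpLP2 (3007 ± 327 TPM), RpS27A (2957 ± 119 TPM) and RpL23 (2699 ± 151 TPM). The 8 of them under 1 TPM were copies of expressed genes. All 73 mitochondrial ribosomal protein genes lay between 145.1 and 884.8 TPM, from mRpL21 to mRpL12, a narrower range than that of the OXPHOS or cytosolic ribosomal lists, and they held 2.37% ± 0.106.

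Regulators were far down the ranking. Of 28 transcription factor genes, which include flight muscle fate genes and those tied to mitochondrial genes, none reached 100 TPM, 13 had 10 to 100, 7 had 1 to 10 and 8 had less than 1. The highest were salm, Mef2, the general myogenic factor (59.8 ± 6.67 TPM), E2f1 (38.6 ± 4.38 TPM) and exd (29.0 ± 2.49 TPM), followed by E2f2 (23.98 TPM), vg (23.6 TPM), salr (23.5 TPM), pho (23.4 TPM) and hth (22.1 TPM). M1BP, which the RNAi of the study targets in the other libraries, had 12.6, 10.4 and 14.1 TPM here. CrebB, Hcf and cnc stood at 19.4, 15.3 and 14.72 TPM, and Dp, sd, Rbf and Spps at 9.82, 4.82, 4.44 and 1.82 TPM. Of the fly relatives of mammalian regulators of mitochondrial genes, Mef2, pho, CrebB, Hcf and cnc were thus above 10 TPM, while others were lower, with ERR at 4.56 ± 0.537, ewg at 3.69 ± 0.286, Ets97D at 1.20 ± 0.185 and srl, the PGC-1 relative, at 0.390 ± 0.0732 TPM. Also under 1 TPM were lms (0.561), ap (0.435), ct (0.255), nau (0.0680), Him, twi and Myc (0.297).

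Among splicing and RNA-binding regulators bru1 stood alone, with 431, 395 and 441 TPM, which was 5.99 ± 0.606 times salm. The next were Hrb98DE (67.2 ± 6.04 TPM), how (46.1 ± 2.54 TPM), sm (36.5 ± 6.84 TPM) and B52 (28.4 ± 5.84 TPM), then bru2 (18.8, 15.9 and 29.8 TPM), Rbfox1 (16.1), tra2 (10.5) and x16 (6.87 TPM). Muscleblind (mbl), another regulator of muscle splicing, had 0.796, 0.832 and 0.505 TPM over all its exons, and bru3 0.0757 TPM. For the upkeep and transcription of mtDNA, TFAM had 239 ± 18.99 TPM and the polymerase PolrMT 71.1 ± 8.69 TPM, against 22.2 ± 3.24 for mtTFB2, 45.3 ± 4.89 for mTTF, 9.43 ± 3.64 for mtDNA-helicase, 6.5002 ± 0.898 for mtSSB and 3.47 ± 0.412 for PolG1. The values of mtTFB1 (436 TPM) and PolG2 (216 TPM) cannot be separated from Ccdc56 and GatC, with which they share all their exon bases.

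**Figure D3:**
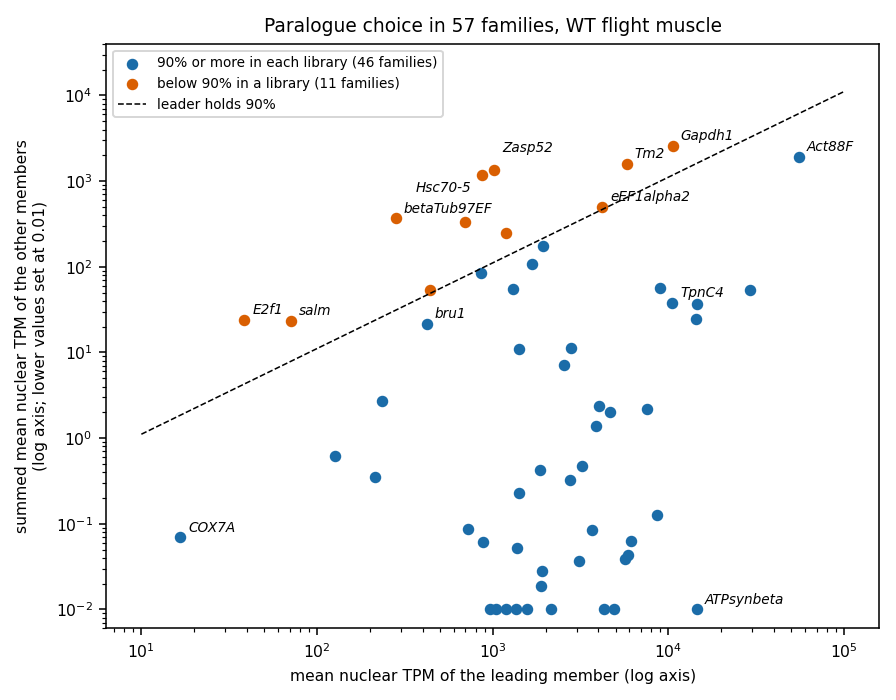
Mean nuclear TPM of the leading member of each of 57 paralogue families (horizontal, log axis) against the summed mean TPM of its other members (vertical, log axis). The lowest sums are set at the lower edge. Points below the dashed line are families whose leader held over 90% of the mean, which 46 families did in each library, and the 11 others are drawn in orange.

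In most of the families compared a single gene held nearly all of the TPM. Of 57 families with 137 members, 46 were led by a single gene that held 90% or more of the family's TPM in each library, and 37 by a gene that held 99% or more. Of the 80 members that did not lead, 33 had 10 TPM or more, 38 were under 1 TPM and 11 had no count in any library. For these 11 a floor of 3 counts in the shallowest library allows up to 0.114 to 0.765 TPM. Since only reads with a unique place in the genome were counted, nearly identical copies lose the reads they share, and the shares of Act87E and Act57B, alphaTub84B and alphaTub84D, and RpS14a and RpS14b are uncertain for that reason.

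For the sarcomere, the actin and troponin C genes known from fibrillar muscle led their families. Act88F held 96.7% ± 0.656 of the TPM of 6 actin genes, against 861 ± 409 TPM for Act79B, 761 ± 62.2 for Act87E and 141 ± 11.6 for Act57B, and 94.7 ± 16.4 and 39.5 ± 13.5 for the cytoplasmic actins Act5C and Act42A. TpnC4 held 99.6% ± 0.204 of troponin C, with TpnC41C, TpnC73F, TpnC47D and TpnC25D at 21.1, 13.2, 2.06 and 1.21 TPM. The muscle myosin genes Mhc, Mlc2 and Mlc1 held 99.8% each over their nonmuscle counterparts zip (24.9 ± 1.32 TPM), sqh (53.6 ± 3.97 TPM) and Mlc-c (36.4 ± 1.77 TPM). Mlp60A held 99.7% over Mlp84B, RyR 98.8% over Itpr, and bru1 95.2% over bru2 and bru3. In contrast tropomyosin was shared, with Tm2 at 78.5% ± 1.44, as were the Zasp genes, in which Zasp52 held 42.8% ± 2.49. The share of Tm2 depends on exon length, which was 2613 bases for Tm2 and 9463 bases for Tm1. Their raw counts were close, at 331474, 186619 and 243705 for Tm2 and 297834, 195820 and 252712 for Tm1.

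For energy genes the body-wide copy was used and the copy with a -L or -like name was at or near 0. ATPsynbeta had 14509, 14190.2 and 14904 TPM, and ATPsynbetaL had 0 counts in each library. The same held for ATPsynCF6L, CG17300 (beside ATPsynB), COX6AL (beside levy), ND-20L, ND-24L, ND-49L and ND-51L2. The copies ATPsynGL, COX4L, COX6AL2, COX7AL and ND-51L1 had 1 to 6 counts in WT replicate 3 and 0 in the others, and SdhBL, COX5BL and UQCR-14L had 0.430, 1.39 and 2.03 TPM. In all, 11 of the paralogues that did not lead had counts in WT replicate 3 alone, and none in WT replicate 1 or 2 alone. Besides the 5 above they were Gpdh2, Gpo3, SdhAL, RpS19b, RpL10Aa and CG14740, the second citrate synthase, with 10 counts in WT replicate 3. Genes of all kinds went the same way. Over all 17457 nuclear genes, 1156 had counts in WT replicate 3 alone, 498 in WT replicate 1 alone and 253 in WT replicate 2 alone.

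The carriers and enzymes showed the same choice. Cyt-c-p was at 7654, 8648 and 6291 TPM and Cyt-c-d, the other cytochrome c gene, at 1.90, 2.22 and 2.41 TPM. Leaders with 99% or more were sesB over Ant2 (56.5 ± 5.91 TPM, sharing exon bases with it), porin over Porin2 (0.428, 0.550 and 6.22 TPM), Argk1 over Argk2 (11.3 ± 3.05 TPM), kdn over CG14740, mAcon1 over mAcon2 (0.0622 TPM), Ald1 over Ald2, Pglym78 over Pglym87, Hex-A over its 3 relatives, SdhA over SdhAL, and Gpo1 over Gpo2 (0.441 TPM) and Gpo3. Gpdh1 held 99.7%, 99.6% and 98.99% over Gpdh2 and Gpdh3 (0.601 TPM). Mpcp1 held 93.9% over Mpcp2 (109 ± 8.50 TPM), and Fum1 91.8% over Fum2 (174 ± 5.83 TPM) and Fum3 (0.123 TPM). Glyceraldehyde-3-phosphate dehydrogenase was the exception, with Gapdh1 at 80.7% ± 1.52 and Gapdh2 holding the rest.

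Among other families, eEF1alpha2, an elongation factor, had 4027, 3948 and 4636 TPM against 483, 599 and 408 TPM for eEF1alpha1, a share of 89.3% ± 2.54 that lay below 90% in WT replicates 1 and 2. Tubulin genes were mixed. The betaTub97EF gene held 43.7% ± 3.31, betaTub56D had 183, 171 and 324 TPM and betaTub60D 162, 129 and 130.3 TPM, and the testis tubulin betaTub85D had 0.0786, 0 and 0.994 TPM. In WT replicate 3 betaTub56D exceeded betaTub97EF (301, 239 and 304 TPM), whereas it was lower in the other libraries. For alpha tubulin, alphaTub84B held 88.9% ± 1.36, with alphaTub84D at 49.8, alphaTub85E at 3.72 and alphaTub67C at 0.219 TPM. The Hsp70 cognates were led by the mitochondrial Hsc70-5 (856, 715 and 1029 TPM) and the cytosolic Hsc70-4 (850.4, 798 and 866 TPM), with Hsc70-1 at 285, Hsc70-3 of the endoplasmic reticulum at 34.4, 27.1 and 133 and Hsc70-2 at 0.123 TPM. Hsc70-3 in WT replicate 3 was 4.91 times its level in WT replicate 2. The spalt genes were both present, with salm at 75.3% ± 1.54 and salr at 28.6, 18.95 and 22.9 TPM, and so were E2f1 (61.6% ± 2.36) and E2f2.

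Ribosomal protein copies were led by 1 gene in 10 of 12 families. RpS5a, RpS10b, RpS19a, RpS28b, RpL10Ab, RpL22, RpL37-1 and RpL7 held over 99%, RpL24 95.9% and RpS15Aa 91.0%. The other members were RpS5b, RpS10a, RpS19b, RpS28a, RpL10Aa, RpL22-like and RpL37-2, all under 1 TPM, and RpL7-like, RpL24-like and RpS15Ab at 11.02, 54.8 and 84.6 TPM. The value of RpL7-like cannot be separated from CG34164, with which it shares 98.8% of its exon bases. RpL34b shared its family with RpL34a, at 82.6% ± 1.57, and RpS14a with RpS14b, at 67.5% ± 0.548.

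**Figure D4:**
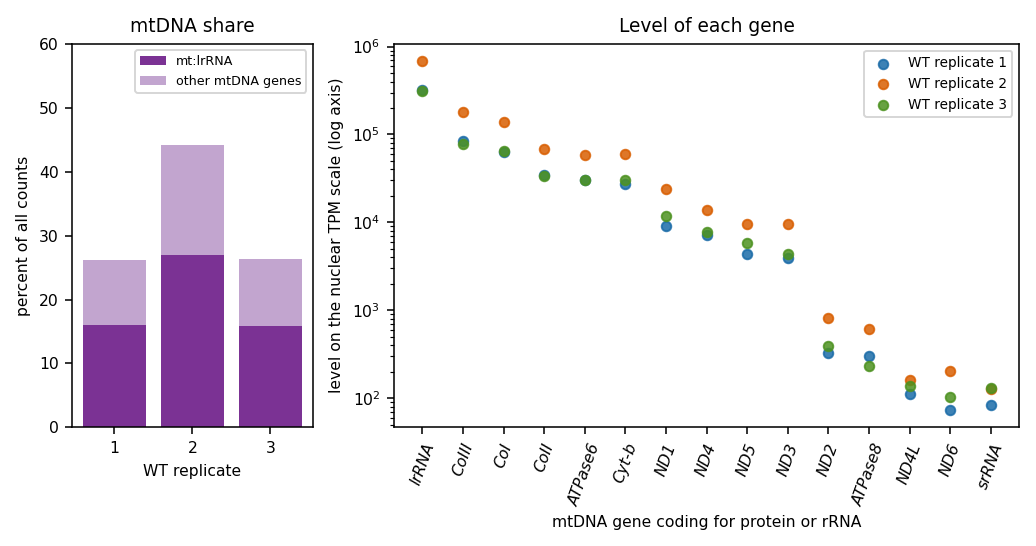
Left, share of all counts on mtDNA genes in each WT library, split into mt:lrRNA and the other genes. Right, level of each mtDNA gene for protein or rRNA on the nuclear TPM scale (log axis). WT replicate 2, with 44.2% of counts on mtDNA, lies above the other libraries for every protein gene.

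The mitochondrial genome carries 13 genes for OXPHOS subunits, 2 for ribosomal RNA and 22 for transfer RNA. Its genes took 26.2%, 44.2% and 26.3% of all counts in WT replicates 1, 2 and 3, a mean of 32.2% ± 10.4. The 95% Wilson intervals of the single shares were no wider than 44.2051% to 44.2348%, which covers counting error only. Without WT replicate 2 the mean was 26.3%. Within mtDNA the makeup was nearly constant. The large ribosomal RNA mt:lrRNA took 61.3%, 61.0% and 60.1% of mtDNA counts, protein genes 38.5%, 38.8% and 39.6%, and transfer RNA genes 0.26%, 0.204% and 0.285%. The small ribosomal RNA mt:srRNA took only 0.0103% ± 0.00416, although the ribosome holds both RNAs in equal number. Ribosomal RNA in polyA libraries does not show how much of it a cell holds.

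Among protein genes mt:CoI took the most mtDNA counts, 14.4% ± 0.207, and mt:CoIII had the highest level per length. Relative to nuclear genes, mt:CoIII had 84136, 180281 and 78048 on the nuclear TPM scale, mt:CoI 63856, 138502 and 65604, mt:CoII 34379.5, 68888 and 33649.9, mt:ATPase6 30733, 58976 and 30599 and mt:Cyt-b 27108, 59976 and 30469. Every one of these exceeded all nuclear OXPHOS genes in each library. The Complex I genes were lower and uneven, with means of 14989 for mt:ND1, 9679 for mt:ND4, 6666 for mt:ND5, 5923 for mt:ND3, 514 for mt:ND2, 136 for mt:ND4L and 127 for mt:ND6. The values of mt:ATPase8 (384) and mt:ND4L are uncertain, because each shares a transcript with a neighbouring gene. The overlap covers 4.32% of the bases of mt:ATPase8 and 0.344% of those of mt:ND4L, and its part in their levels was not tested. WT replicate 2 was above the mean of WT replicates 1 and 3 for all 13 protein genes, by 1.30 to 2.32 times with a median of 2.14.

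The mitochondrial and nuclear parts of a complex were set against each other on this scale. The median of the 3 mtDNA genes of Complex IV was 17.22, 34.9 and 17.8 times that of its 10 nuclear genes. For Complex III the single gene mt:Cyt-b stood at 7.46, 15.5 and 8.35 times the nuclear median, for Complex V the 2 genes at 3.34, 6.32 and 3.36 times, and for Complex I the 7 genes at 2.85, 6.76 and 3.19 times. In each of these complexes the mtDNA median was thus above the nuclear median, and the excess was largest in WT replicate 2. For Complex V the mtDNA median is only the midpoint of 2 unlike genes, mt:ATPase6 at 40103 and mt:ATPase8 at 384. In Complex I, mt:ND2 (514), mt:ND4L (136) and mt:ND6 (127) lay below the nuclear median of 1375 TPM. Nuclear OXPHOS subunits held 21.0%, 21.7% and 21.5% of nuclear TPM, a small difference that was also highest in WT replicate 2, where 50 of 73 were above their own mean, against 2704 of 7292 over all genes compared.

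**Figure D5:**
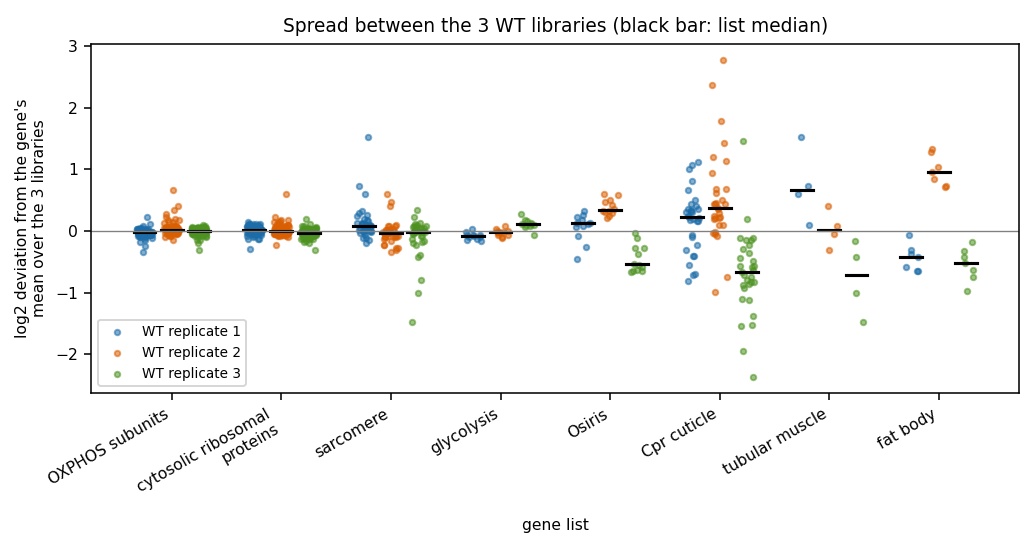
Deviation of each gene from its own mean log2 TPM over the 3 WT libraries, for members of 8 lists with at least 1 TPM and 10 counts in each library, with a bar at the list median. OXPHOS, ribosomal protein and glycolysis genes stay near 0, while Osiris and Cpr genes are low in WT replicate 3 and fat body markers are high in WT replicate 2.

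The libraries agreed best for the most abundant genes. Over 7292 genes with a mean of 1 TPM or more and 10 counts in each library, the median coefficient of variation (CV) was 11.9%. It was 14.53% for genes of 1 to 10 TPM, 10.6% for 10 to 100 TPM, 8.32% for 100 to 1000 TPM and 4.31% for 1000 TPM or more, where counting error alone would give 8.32%, 3.28%, 1.32% and 0.539%. Counting error was therefore a minor part of the spread above 10 TPM. The biological CV that edgeR estimates over all 3 libraries was 21.5% in common. Much of the spread lay with WT replicate 3. Without it the median CV was 7.69% and the biological CV 13.5%, whereas without WT replicate 1 they were 12.4% and 26.02%, and without WT replicate 2 they were 9.78% and 22.8%.

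Across these genes, which are not independent replicates, the log2 levels of WT replicates 1 and 2 correlated at 0.991, those of 1 and 3 at 0.979 and those of 2 and 3 at 0.972 (Pearson's r, as a description). A difference of 2-fold or more was found for 140, 374 and 560 genes. Of the 684 genes whose highest library was at least 2 times the lowest, WT replicate 3 was farthest from the others for 478, or 69.9%, being lowest for 291 and highest for 187.

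The gene lists differed in how well they agreed. OXPHOS subunits had a median CV of 3.59%, TCA cycle genes 3.60%, cytosolic ribosomal proteins 4.28%, glycolysis genes 7.04%, mitochondrial ribosomal proteins 7.28% and sarcomere genes 8.20%. TpnC4 had a CV of 0.449% and COX4 0.559%, among the lowest of the named genes. The thick filament genes were more variable than that, with a CV of 13.0%, and 9 of 11 were above their mean in WT replicate 1 while 2 of 11 were in WT replicate 2, against 3522 and 2704 of 7292 over all genes compared. Levels also moved with exon length. In WT replicate 2 the median log2 deviation was 0.06 for genes under 500 bases and was -0.14 for the longest genes, whereas WT replicate 1 had -0.07 and 0.09, and WT replicate 3 had 0.04 for the longest genes. The part of exon length in the values of long genes such as Mhc, bt and sls was not tested.

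Lists outside the muscle programme varied most. Of 23 Osiris genes, 22 of which lie on chromosome 3R, 5 had 1000 TPM or more and 11 had less than 1. The 5 were Osi19, Osi20, Osi15 (6397, 6628 and 3569 TPM), Osi18 (4053, 5306 and 2412 TPM) and Osi9 (2729.7, 2917 and 1625 TPM), followed by Osi7 (784, 952 and 442 TPM). Together the family held 2.76%, 3.41% and 1.65% of nuclear TPM. All 12 with 10 counts in each library were highest in WT replicate 2 and above their mean there, and 10 of the 12 were lowest in WT replicate 3. Over all 7292 genes compared, 2704 were above their mean in WT replicate 2 and 4594 in WT replicate 3, where 0 of the 12 Osiris genes were. The Cpr genes for cuticle proteins moved in part with them, at 0.453%, 0.369% and 0.250%, led by Cpr30B (1308, 949 and 773 TPM), Cpr30F (1396, 837 and 593 TPM) and Cpr64Aa (805, 677 and 380.4 TPM). Which cells made these transcripts cannot be read from whole-tissue libraries. Both families were listed after their values were seen. The 5 epidermis markers Cad99C, pio, vvl, dpy and grh had 5.11 TPM or less, and 3 of them, Cad99C (5.32, 5.87 and 4.15 TPM), vvl (4.11, 4.47 and 2.22 TPM) and dpy (1.84, 2.62 and 0.865 TPM), were highest in WT replicate 2 and lowest in WT replicate 3. The tracheal genes btl and trh had the same order, with 23.6, 31.9 and 14.497 and 13.0, 17.998 and 8.94 TPM, whereas pio, grh, verm and serp did not.

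Markers of tubular muscle and fat body also differed between libraries. Act79B, the actin of tubular muscles, had 1332, 652 and 599 TPM and TpnC41C, their troponin C, 43.3, 14.6 and 5.42 TPM, and both were highest in WT replicate 1. TpnC73F and TpnC47D had 14.03, 13.8 and 11.8 and 2.81, 2.45 and 0.925 TPM, and the 4 markers summed to 1392, 682.9 and 617.6 TPM. Fat body markers summed to 86.9, 251.6 and 80.9 TPM, with all 7 of those measured above their mean in WT replicate 2 alone. Over all genes compared, 2704 of 7292 were above their mean in WT replicate 2. Fbp1, Fbp2 and Lsp2 had 18.2, 68.6 and 16.4, 20.5, 78.2 and 20.7 and 28.1, 57.7 and 25.8 TPM, while the yolk protein genes Yp1, Yp2 and Yp3 were at or near 0. The part of these cells in other differences between libraries was not tested.

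The 10 genes of 10 TPM or more with the widest ratio between libraries belonged to none of the muscle or energy lists. Adh, alcohol dehydrogenase, had 95.2, 143 and 2.95 TPM, a ratio of 48.6, and Adhr, which shares nearly all of its counted exon bases, had 101, 152 and 3.14 TPM. Crys had 8.09, 91.0 and 2.32 TPM, Cpr72Ec 6.07, 55.1 and 1.56 TPM and Cpr49Ag 3.27, 29.6 and 1.97 TPM, all 3 highest in WT replicate 2. Nplp2 had 23.1, 54.7 and 2.80 TPM, Culd 24.4, 27.7 and 1.47 TPM and CG12723 38.4, 70.02 and 5.80 TPM, which like Adh were lowest in WT replicate 3. The only genes of the 10 that were highest in WT replicate 3 were CG4914, at 0.815, 1.03 and 31.6 TPM, and the odorant-binding protein gene Obp56a, at 1.85, 1.56 and 36.0 TPM. Of the 3602 genes with this level and 10 counts in each library, 209 had a ratio of 2 or more and 54 of 4 or more.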

How the data were processed

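RNA was measured by stranded polyA sequencing of hand-dissected flight muscle. Per the submitters' processing notes, reads were demultiplexed with bcl2fastq 2.17.1.14, aligned to dm6 with Subread 2.0.3 and assigned to exons with featureCounts. The authors deposited raw counts per gene together with summed exon lengths, and the header names uniquely aligned reads. The strand setting of the counting is not given in the sources used here. A further deposited table of the authors' own RNAi comparison (fold changes and p-values) was not used.

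The table held 17494 genes, of which 17457 were nuclear and 37 mitochondrial. Symbols came from the annotation by gene ID (17357 genes) or by identical span and strand (91), and 46 had none. The 1 line that names no gene was left out. For each library the count was divided by exon length in kilobases and scaled to 1e+06 over nuclear genes (TPM), in Python 3.11.15 with pandas 2.3.3, numpy 2.4.6 and scipy 1.17.1. Spread was computed for genes with a mean of 1 TPM and 10 counts in each library, with the biological CV from edgeR 4.0.16 in R 4.3.3, which was tested on simulated data. Summed exon length includes every isoform, so genes with many alternative exons are understated, and 1204 nuclear genes share exon bases with another gene on the same strand.

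A family was called led by 1 gene with 90% or more of its TPM in each library. Genes named were the 4 markers, the 25 most abundant nuclear genes, mitochondrial protein and rRNA genes, the 4 highest members of each list, any member of a list of 30 or fewer, all family members, and the 10 genes of 10 TPM or more with the largest ratio between libraries. Any other named gene was chosen after its values were seen. The gene lists were chosen with earlier results of these data known. The alternatives were scaling over all genes, TMM and DESeq2 1.42.0 size factors, another exon length, other thresholds, genes without shared exon bases and leaving out each library.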

Additional observations from a re-analysis of the deposited data

How the results depend on the processing

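The shares of nuclear TPM depended on what was scaled and on gene length. Scaled over all genes, mtDNA genes included, the sarcomere lists held 9.81%, OXPHOS subunits 11.9%, ribosomal proteins 7.10% and glycolysis 1.85%, and the median CV was 24.5%. With 200 bases taken off each exon length they held 15.97%, 22.6%, 14.9% and 2.99%, and 21 of the 25 and 90 of the 100 most abundant genes were shared with the list given. Without genes that share exon bases the sarcomere held 18.9%, OXPHOS subunits 22.4% and glycolysis 3.58%. OXPHOS subunits held more than the sarcomere under each of these. None of these alternatives used isoform lengths, so the understatement of genes with many alternative exons, such as Mhc, remains in this comparison. A threshold of 5 TPM left 4578 genes in place of 7046, and the mtDNA share was 44.2% by counts per kilobase. The median CV was 15.9% over all genes with 1 count in each library, and 7.69% to 12.4% when a library was left out, the lowest without WT replicate 3. With TMM and DESeq2 size factors it was 11.1% and 11.03%. Leaving out a library, the mtDNA share ranged over 26.3% to 35.2% and 46 families stayed led by 1 gene. No paired analysis was possible because only 1 group was described. Intervals and floors cover counting error only. Genes near 1 TPM carry the widest counting error.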

Other observations

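Transcripts that code for no protein were few at high levels. All genes in this paragraph were chosen after their values were seen. Among long noncoding RNAs, lncRNA:CR31781 had 504, 536 and 604 TPM and lncRNA:CR42862 had 435, 455 and 406 TPM. The value of lncRNA:CR42491, 1013 ± 16.7 TPM, cannot be separated from RpL22, with which it shares exon bases. Among the genes that differed least between libraries was CG3420, with 333, 332 and 333 TPM and a CV of 0.262%, followed by RpS29 at 0.285% and eIF1A, a translation initiation factor, at 0.429%.

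Among the genes picked for counts in WT replicate 3 alone, 12 that code for known sperm or testis proteins were named. These, S-Lap1, S-Lap2, S-Lap3, S-Lap7, S-Lap8, loopin-1, Mst98Ca, Mst98Cb, Mst77F, ocn, dj and ProtB, had 456 counts together in WT replicate 3, and their 0 counts in the others were fixed by that choice. Among genes chosen after their values were seen, dy had 5.06, 7.25 and 60.0 TPM, mey 10.7, 8.27 and 87.6 TPM and tyn 14.9, 13.3 and 79.2 TPM, so that these were highest in WT replicate 3, and the same was seen for resilin (4.70, 16.8 and 49.2 TPM), Gasp (64.9, 61.1 and 277 TPM) and Cpr51A (56.5, 54.7 and 254 TPM). In contrast 10 of the 12 Osiris genes with 10 counts in each library were lowest there. Of the 12, 0 were above their mean in WT replicate 3, against 4594 of 7292 over all genes compared. The source of these transcripts was not tested.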
